A study of Mus musculus with 4 samples.

Results

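TCP was added to mouse embryonic stem cells while doxycycline shut off Oct4, and these cells were compared with cells given doxycycline alone. The comparison uses all 4 arrays of the series: 2 with doxycycline alone, titled as controls (dox 1 and dox 2), and 2 with doxycycline and TCP (dox+TCP 1 and dox+TCP 2). The arrays were chosen by their titles, and the measure is the log ratio of treated over reference RNA on each array, taken as group means and within replicate number (pair 1 is dox+TCP 1 minus dox 1, pair 2 is dox+TCP 2 minus dox 2). All treated cells were ZHBTc4 cells, a line in which the Oct4 protein comes from a transgene that doxycycline represses, kept for 2 passages on gelatin after culture on irradiated embryonic fibroblasts and then given 2 µg doxycycline (volume not given) for 48 h. The reference in the other dye was also ZHBTc4 cells, with no treatment named in its label. The labels describe the arrays of a group as biological replicates, without saying whether cultures were separate, so p-values measure the spread between these samples. All of this is 1 cell line, and cells with Oct4 and TCP are not among the groups, so an effect of TCP that needs the loss of Oct4 cannot be told apart from one that does not.

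The labels write TCP without spelling it out; in work on LSD1 it usually stands for tranylcypromine, which inhibits LSD1 and the monoamine oxidases. LSD1 (Kdm1a) removes methyl groups from lysine 4 of histone H3 and is carried to genes by the CoREST and NuRD complexes, and by SNAG-domain factors such as Snai1 and Gfi1. Oct4 (Pou5f1) holds embryonic stem cells in the pluripotent state and represses trophoblast genes, so that its loss turns the cells toward trophoblast, an epithelium.

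The arrays carried 45018 spots each, and after control spots were set aside 74.3% to 78.1% stood well above background in Cy5 (treated cells) and 68.8% to 78.1% in Cy3 (reference). The reference was not alike on the arrays. Cy3 signals correlated across genes at 0.997 between dox 1 and dox+TCP 1 and at 0.974 to 0.986 between other pairs of arrays (genes are not independent replicates). Krt8, a trophoblast keratin, had a Cy3 signal (log2, relative to the array's 75th percentile) of 3.49 on dox 1 and 3.83 on dox+TCP 1, but 7.09 on dox 2 and 7.22 on dox+TCP 2. Its Cy5 signal lay between 6.67 and 7.44 on the 4 arrays. Pair 1 shared a slide and a scan day, while dox+TCP 2 was on a slide of its own, scanned on another day than the other 3 arrays, so in pair 2 slide, scan day and TCP cannot be told apart. Values on each array, or in both pairs, are given for the genes the results turn on, with the Cy5 signal alone for many of them; other genes are given by their difference only.

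Oct4 was low in both groups. The log2 ratio of Pou5f1 was -3.44 on dox 1, -3.52 on dox 2, -3.42 on dox+TCP 1 and -3.43 on dox+TCP 2. The groups thus differed by 0.05 ± 0.21 (here and below, the limma estimate and its SE over 2 arrays a side), and the loss of Oct4 that the doxycycline label names was seen on all 4 arrays. In Cy5 alone its difference was -0.53, with 0.51 on dox 2 against -0.77 on dox 1 (log2 Cy5 signal). Kdm1a, the gene of LSD1, differed by -0.20 ± 0.22. Maoa and Maob, the monoamine oxidase genes, differed by -0.22 ± 0.24 and -0.47 ± 0.35. These 4 genes did not pass the test, and the SE leaves differences of that size unresolved.

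With TCP, the surface peptidase gene Mme, the secreted phosphoprotein gene Spp1, the surface antigen genes Ly6c1 and Ly6a, the lipoprotein gene Apoe and the epithelial repressor gene Zeb1 stood higher than with doxycycline alone. The splicing factor gene Esrp1, the transporter-like gene Mfsd6l, the sorting adaptor gene Ap1m2 and Myc stood lower. Of the pluripotency genes 7 of 43 stood at least 1.5-fold higher in both pairs and 0 lower, and of the epithelial genes 8 of 37 lower and 0 higher. Over all genes tested 1.55% were higher and 1.40% lower by that measure. The gene lists here and below were drawn up with earlier results of these data known. Some hold genes named by those results, such as Spp1 in the pluripotency list and Esrp1 in the epithelial list. Their counts are therefore a description. No single gene passed the test: limma's adjusted p was under 0.05 for 0 of 21198 genes (0%), and the smallest was 0.99987. At an unadjusted p under 0.05 there were 366 higher genes (1.73%) and 325 lower ones (1.53%), together 3.26% of the genes tested. That is below the share of 0.05 that such a threshold passes on average when no gene differs. An exact permutation test of 2 against 2 arrays cannot go below p = 0.333, so neither route could settle a single gene here.

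Genes that differed by at least 1.5-fold the same way in both pairs numbered 329 higher (1.55%) and 296 lower (1.40%). A change of 2-fold or more in both pairs was seen for 39 higher genes (0.184%) and 38 lower ones (0.179%). Against these, 53 genes (0.250%) were at least 1.5-fold higher in pair 1 and lower in pair 2, and 367 (1.73%) were lower in pair 1 and higher in pair 2. Pair 1 had 2907 genes past 1.5-fold (13.7%) and pair 2 had 4454 (21.0%), and the differences of the pairs correlated across genes at 0.059. In Cy5 alone the counts in both pairs were 427 higher (2.01%) and 244 lower (1.15%), limma called 0 genes, 175 had an unadjusted p under 0.05 (0.826%), and the correlation of the pairs was 0.0048. Higher genes made up 52.6% of the count with the scanner's ratio, 63.6% in Cy5 alone, 70.1% with normexp and loess after bright local backgrounds were replaced (239 and 102) and 90.4% with backgrounds as read (169 and 18). With median centring in place of dye normalization they made up 47.05% (319 and 359), so that lower genes were the more numerous. The balance of higher and lower genes thus depended on the scaling. A gene was past 1.5-fold in both pairs by the ratio and by Cy5 for 167 higher (0.788%) and 136 lower genes (0.642%).

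**Figure D1:**
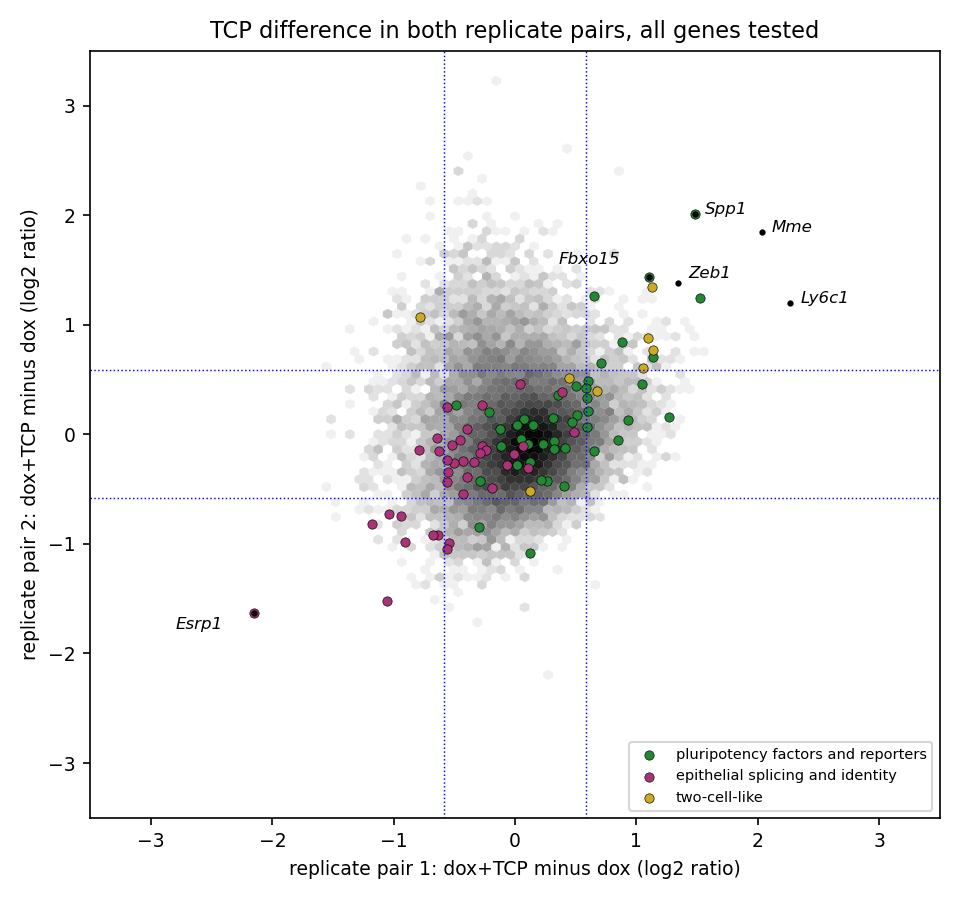
The log2 ratio difference of dox+TCP minus dox in replicate pair 1 (horizontal) and pair 2 (vertical); grey hexagons give the density of the 21198 genes tested on a log colour scale, coloured points the members of 3 gene lists, black points named genes, and dotted lines 1.5-fold. Mme, Ly6c1, Spp1 and Zeb1 lie past 1.5-fold in the upper right corner and Esrp1 in the lower left, while the cloud of all genes has no clear slope (correlation 0.059).

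Mme encodes neprilysin, an enzyme on the cell surface that degrades small peptides. Its log2 ratio was -1.64 on dox 1 and -1.49 on dox 2, against 0.39 on dox+TCP 1 and 0.36 on dox+TCP 2. Both dox arrays were below the reference and both dox+TCP arrays above it, with replicates closer to each other than the groups. The difference was 1.94 ± 0.21, or 3.84-fold, and 2.04 in Cy5 alone, where the 4 signals were -2.17, -1.75, -0.15 and 0.32 (log2, in the order dox 1, dox 2, dox+TCP 1, dox+TCP 2). A further probe for Mme, also well above background, differed by 0.30 in pair 1 and 0.57 in pair 2, so the probes had the same sign and unequal sizes. The brighter probe lies at chromosome 3 from 63485822 to 63485881 in the mm7 build of the files; exon and UTR annotation of that build was not used here.

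Spp1 encodes osteopontin, a secreted ligand of integrins that embryonic stem cells transcribe under Oct4 and Sox2. Its log2 ratio was -2.52 on dox 1, -3.76 on dox 2, -1.04 on dox+TCP 1 and -1.75 on dox+TCP 2. It was below the reference on every array, less so with TCP, and the groups did not overlap, as was the case for 14.7% (higher) and 14.9% (lower) of all genes tested. The difference was 1.75 ± 0.50, or 3.36-fold, with 1.49 in pair 1 and 2.01 in pair 2. The Spp1 probe lies on chromosome 5 from 103631152 to 103631211 (mm7). One of the 2 RefSeq start sites of Spp1 has, in the 250 bases before it, a match to the octamer that Oct4 binds (ATGCAAAT, searched on both strands), which 1.6% of 32851 such windows hold. It is shown because Spp1 was higher with TCP while Oct4 was not, with the match in capitals (GRCm38.p6, chr5:104435942-104436191, plus strand, 5′ to 3′):
Spp1: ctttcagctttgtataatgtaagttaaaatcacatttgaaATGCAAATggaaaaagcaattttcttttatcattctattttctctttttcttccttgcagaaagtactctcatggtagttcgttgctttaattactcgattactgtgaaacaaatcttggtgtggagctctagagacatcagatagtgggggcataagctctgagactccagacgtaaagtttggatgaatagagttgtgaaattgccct
A match is a description of the letters and was not tested as a binding site. The window of Prkcb, another gene that was higher with TCP, also holds a match.

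Esrp1 directs epithelium-specific splicing. Its log2 ratio was 1.52 on dox 1 and 1.73 on dox 2, against -0.63 on dox+TCP 1 and 0.11 on dox+TCP 2. It stood above the reference with doxycycline alone and near or below it with TCP. The difference was -1.89 ± 0.32, a 3.71-fold lower ratio, and -1.82 in Cy5 alone. Its Cy3 signal was between -1.98 and -1.67 on the 4 arrays, so the reference moved little. The probe lies on chromosome 4 from 11259829 to 11259888 (mm7). Esrp2, its relative, had ratios of 3.13, 2.68, 2.58 and 1.69 in the same order, a difference of -0.77 ± 0.38.

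**Figure D2:**
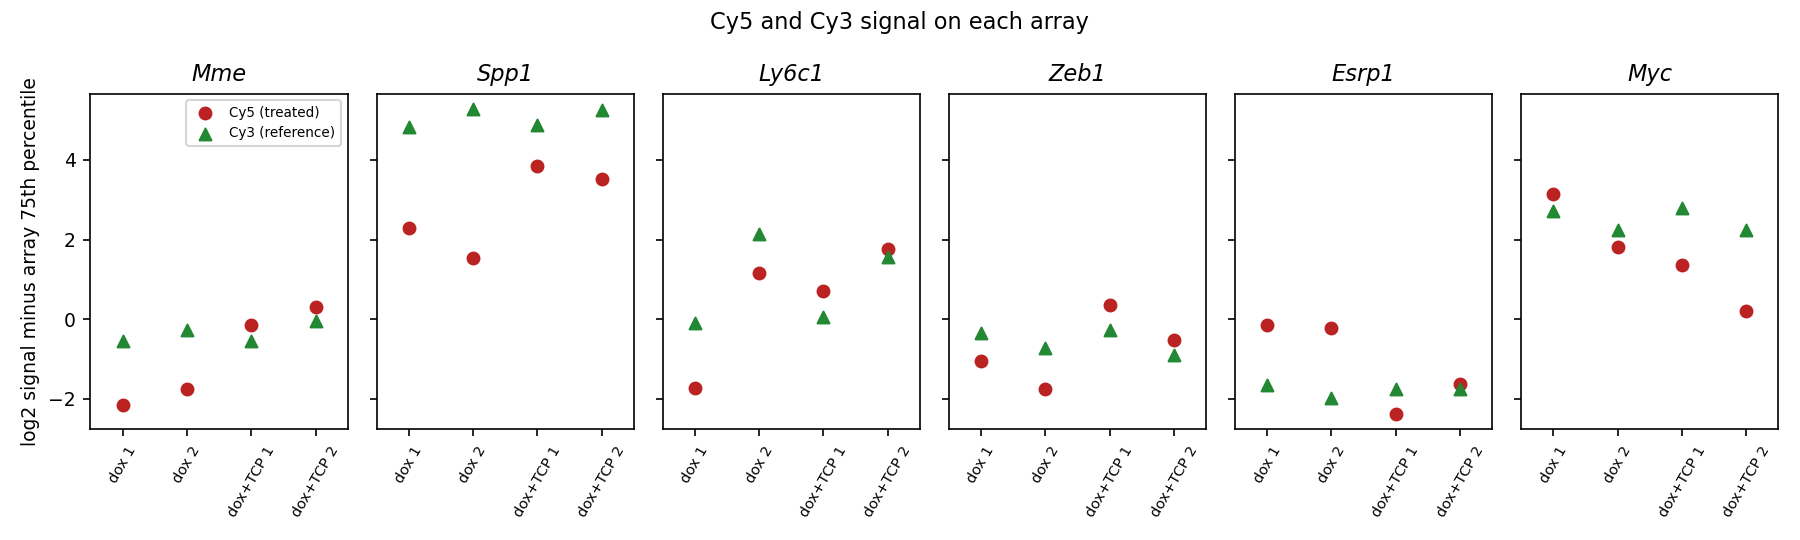
Cy5 signal of the treated cells (red circles) and Cy3 signal of the reference (green triangles) on each array for 6 genes, as log2 signal minus the array's 75th percentile (Cy5 and Cy3 are each scaled on their own). For Mme the Cy5 signal lies at -2.17 and -1.75 with doxycycline and at -0.15 and 0.32 with TCP, while for Ly6c1 both channels are higher on dox 2 than on dox 1.

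Of genes with an ordinary name, the 12 highest and 12 lowest by the smaller of their pair differences, with groups apart in both the ratio and Cy5, lead the comparison. Groups were apart in both for 953 higher (4.50%) and 1342 lower genes (6.33%). The rule orders genes by the difference itself, so their sizes are a description. For the 12 higher genes the difference ran from 1.21 to 1.94, with SEs from 0.21 to 0.63. In 10 of the 12, both dox arrays were below the reference. Beside Mme and Spp1 they held Apoe, a lipid carrier gene, whose ratio was -1.53 on dox 1, -0.22 on dox 2, 0.05 on dox+TCP 1 and 1.33 on dox+TCP 2. Its replicates differed by more than 1 within each group, and the SE of its difference of 1.56 was 0.62. Glod5, of the glyoxalase family, was more even, at -2.98, -3.00, -1.44 and -1.59 (1.47 ± 0.21). Zeb1, a zinc finger factor that represses epithelial genes, was at -0.71, -1.03, 0.63 and 0.35 (1.36 ± 0.24).

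Of the other higher leading genes, Morc1, which silences transposons in germ cells, was at -3.13, -3.36, -2.00 and -1.74 (1.37 ± 0.23). Msln, the mesothelin gene, was at -5.23, -3.81, -3.77 and -2.56, where the highest dox array nearly met the lowest dox+TCP array (1.36 ± 0.63). Myom2, of the sarcomere's M band, was at 0.36, 0.17, 1.56 and 1.51 (1.27 ± 0.21). Car8 (1.45 ± 0.40), the protein kinase C gene Prkcb (1.39 ± 0.35) and Cpeb1, which regulates translation (1.21 ± 0.24), were also among the 12. A further Prkcb probe differed by only 0.19 and 0.08 in the pairs. All 12 were also past 1.5-fold in both pairs by Cy5 alone, where the rule had fixed the direction but not the size.

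**Figure D3:**
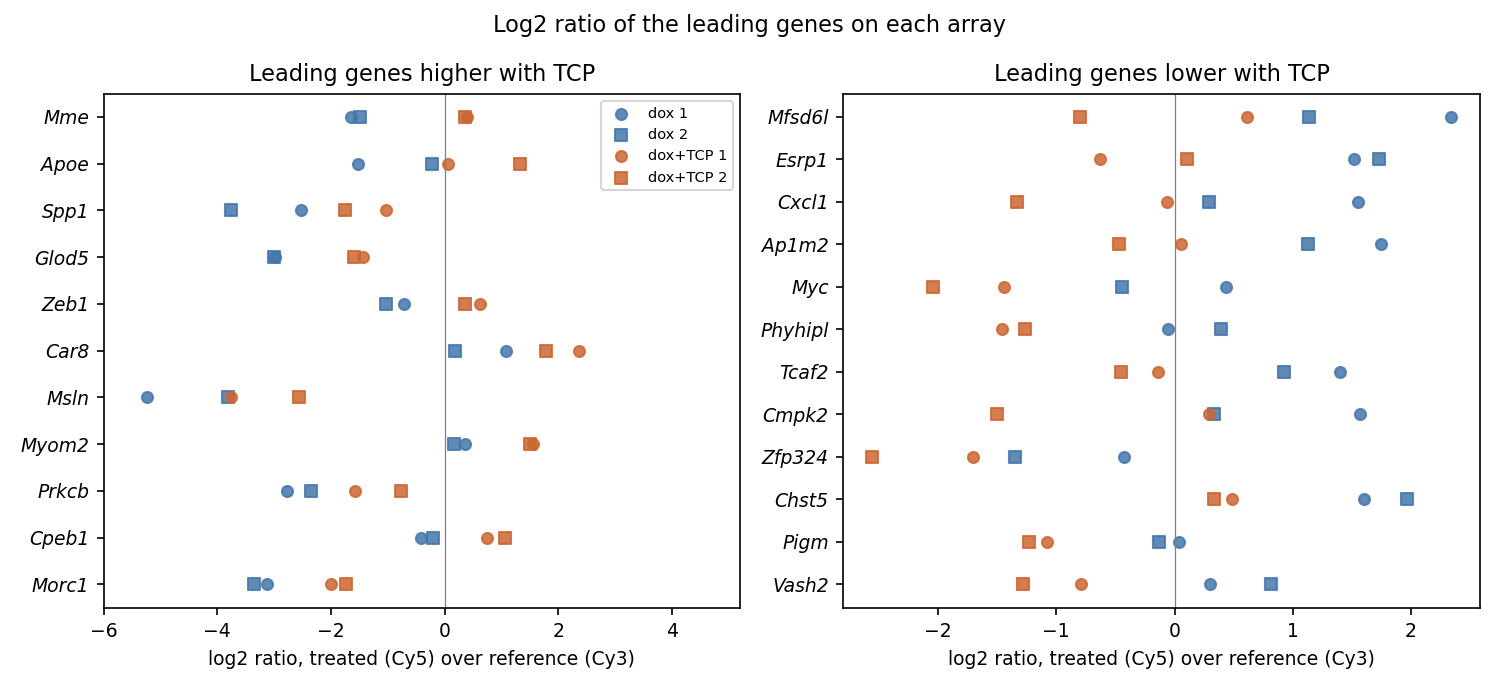
Log2 ratio of treated (Cy5) over reference (Cy3) on each array for leading higher genes (left) and the 12 leading lower genes (right); blue marks dox, orange dox+TCP, circles replicate 1 and squares replicate 2. Mme and Glod5 show tight replicates, while Apoe, Msln, Cxcl1 and Cmpk2 differ between replicates by about as much as between groups.

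For the 12 lower genes the difference ran from -1.89 to -1.11, with SEs from 0.22 to 0.72, and 8 of the 12 were above the reference on both dox arrays. Mfsd6l had ratios of 2.34, 1.14, 0.61 and -0.80 (-1.83 ± 0.62). Ap1m2, the epithelial subunit of an adaptor that sorts proteins to the basolateral membrane, was at 1.74 on dox 1 and 1.13 on dox 2 and at 0.06 and -0.47 with TCP (-1.64 ± 0.33). Myc, a transcription factor of growth, was at 0.44, -0.44, -1.44 and -2.04 (-1.74 ± 0.40), and its other probes differed by -1.90 and -1.64, and by -0.91 and -0.65, in the pairs. Chst5, a sulfotransferase gene, was at 1.60, 1.96, 0.48 and 0.33 (-1.37 ± 0.24). Pigm, of the synthesis of membrane anchors, was at 0.04, -0.13, -1.07 and -1.23 (-1.11 ± 0.22). By Cy5 alone 11 of the 12 lower genes were past 1.5-fold in both pairs, with the direction again fixed by the rule. Pigm was not, with Cy5 differences of -1.03 and -0.54.

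Of the 12 lower genes, 6 were dim in at least 1 dox+TCP array, and for those the size is loose. Cxcl1, a chemokine gene, was at 1.55, 0.29, -0.06 and -1.34 (-1.62 ± 0.61). It was not well above background in Cy5 on either dox+TCP array, so that its Cy5 signal was at least 1.1-fold higher with doxycycline alone. Its reference signal was well above background on only 1 of the 4 arrays. Phyhipl was also not well above background with TCP, with a ratio difference of -1.535 ± 0.26. Its Cy5 signal was -2.10 on dox 1 but -4.30 on dox 2, so that its bound of 4.1-fold rests on dox 1. Its reference signal differed by -2.52 in pair 1 and 0.95 in pair 2, and a further probe, above background on 2 of the 4 arrays, had the opposite sign (0.14 and 0.71 in the pairs). Tcaf2 (-1.46 ± 0.27), the nucleotide kinase gene Cmpk2 (-1.56 ± 0.72), Zfp324 (-1.24 ± 0.45) and Vash2 (-1.60 ± 0.30) were well above background on 1 of the 2 dox+TCP arrays. A further Vash2 probe that was above background on no array had the opposite sign (1.40 and 1.41 in the pairs). Rgma and Adnp are given beside these because earlier results of these data named them. Rgma, a guidance molecule gene, was at 2.86, 2.96, 1.96 and 1.78 (-1.04 ± 0.21). Adnp, of a chromatin remodelling complex, was at 0.48, 0.89, -0.43 and -0.41 (-1.10 ± 0.24). Its 3 probes gave pair differences between -1.45 and -0.91. In Cy5 alone Adnp differed by -0.93 in pair 1 and -0.40 in pair 2, and its reference signal by -0.02 and 0.89.

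Windows of 250 bases before RefSeq start sites were held for 5 of the 12 higher and 9 of the 12 lower genes. The letters CACCTG (on either strand, as CACCTG or CAGGTG), the core that Zeb1 and Snai2 bind, occurred in 4 of 11 windows of the lower genes and 3 of 10 of the higher ones, against 17.2% of 32851 windows. Windows with at least 4 copies numbered 14 of the 32851 (0.0426%), among them those of Ap1m2 and Mfsd6l. These are shown because both genes were among the 12 lower while Zeb1 and Snai2 were higher; the choice was made after the matches were seen. Copies are in capitals (GRCm38.p6, 5′ to 3′; Ap1m2 chr9:21312334-21312583, minus strand; Mfsd6l chr11:68555936-68556185, plus strand):
Ap1m2: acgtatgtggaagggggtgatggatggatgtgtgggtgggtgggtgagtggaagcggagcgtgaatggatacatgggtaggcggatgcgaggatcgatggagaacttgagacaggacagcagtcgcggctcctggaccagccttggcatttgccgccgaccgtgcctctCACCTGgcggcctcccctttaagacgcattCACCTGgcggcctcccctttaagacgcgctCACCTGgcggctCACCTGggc
Mfsd6l: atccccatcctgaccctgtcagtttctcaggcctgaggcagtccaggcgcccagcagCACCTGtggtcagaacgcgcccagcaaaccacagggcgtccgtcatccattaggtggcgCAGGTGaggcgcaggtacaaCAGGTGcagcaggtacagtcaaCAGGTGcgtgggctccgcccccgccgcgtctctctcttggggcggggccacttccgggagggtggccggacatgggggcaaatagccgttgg
In Ap1m2 the 4 copies lie between bases 170 and 247 of the window, and in Mfsd6l between bases 58 and 164. The first copies in Ap1m2 belong to a longer stretch of bases that is repeated, so its 4 copies are not independent. Binding at these letters was not tested. The octamer shown above for Spp1 occurred in 2 of 10 windows of the higher genes (Spp1 and Prkcb) and 0 of 11 of the lower ones.

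The turn toward trophoblast brings epithelial genes with it. Of 37 measured, 8 were at least 1.5-fold lower in both pairs and 0 higher (background 1.40% and 1.55%), and 29 were below 0 in both pairs against 3 above. Over all genes tested 24.2% were below 0 in both pairs and 27% above. The median difference was -0.34 (-0.51 in pair 1 and -0.25 in pair 2), where all genes tested had 0.02 (0.06 and -0.04), and in Cy5 it was -0.48. Among the 8 were Esrp1, Grhl1, Grhl2, Cldn7, Marveld2, Ocln and Crb3. The grainyhead factors Grhl1 and Grhl2 maintain epithelial transcription. Grhl1 had ratios of 1.16, 0.62, 0.25 and -0.36 (-0.95 ± 0.33), and a further probe gave -0.840 and -1.099 in the pairs. Grhl2 was at -0.52, -0.31, -1.69 and -1.13 (-0.999 ± 0.28), although its Cy5 difference in pair 2 was -0.14.

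The values of several junction genes, chosen after they were seen, were as follows. Ocln, the occludin gene of tight junctions, was at 0.83 and 1.16 with doxycycline and at 0.16 and 0.24 with TCP (-0.80 ± 0.23), without overlap. Crb3, of apical polarity, was at 1.74, 2.07, 1.104 and 1.15 (-0.78 ± 0.23), also without overlap. Of all genes tested 14.9% were lower without overlap. Cldn7 (-0.88 ± 0.65) and Marveld2 (-0.84 ± 0.51) of the tight junction overlapped between the groups. The E-cadherin gene Cdh1 was among those below 0 in both pairs, at -0.55 and -0.34, and Epcam at -0.43 and -0.55. Other members differed the other way: the difference of Cldn4 was 0.38 ± 0.74 (Cy5 0.38 and -0.60 in the pairs) and that of Ovol2 0.25 ± 0.23.

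**Figure D4:**
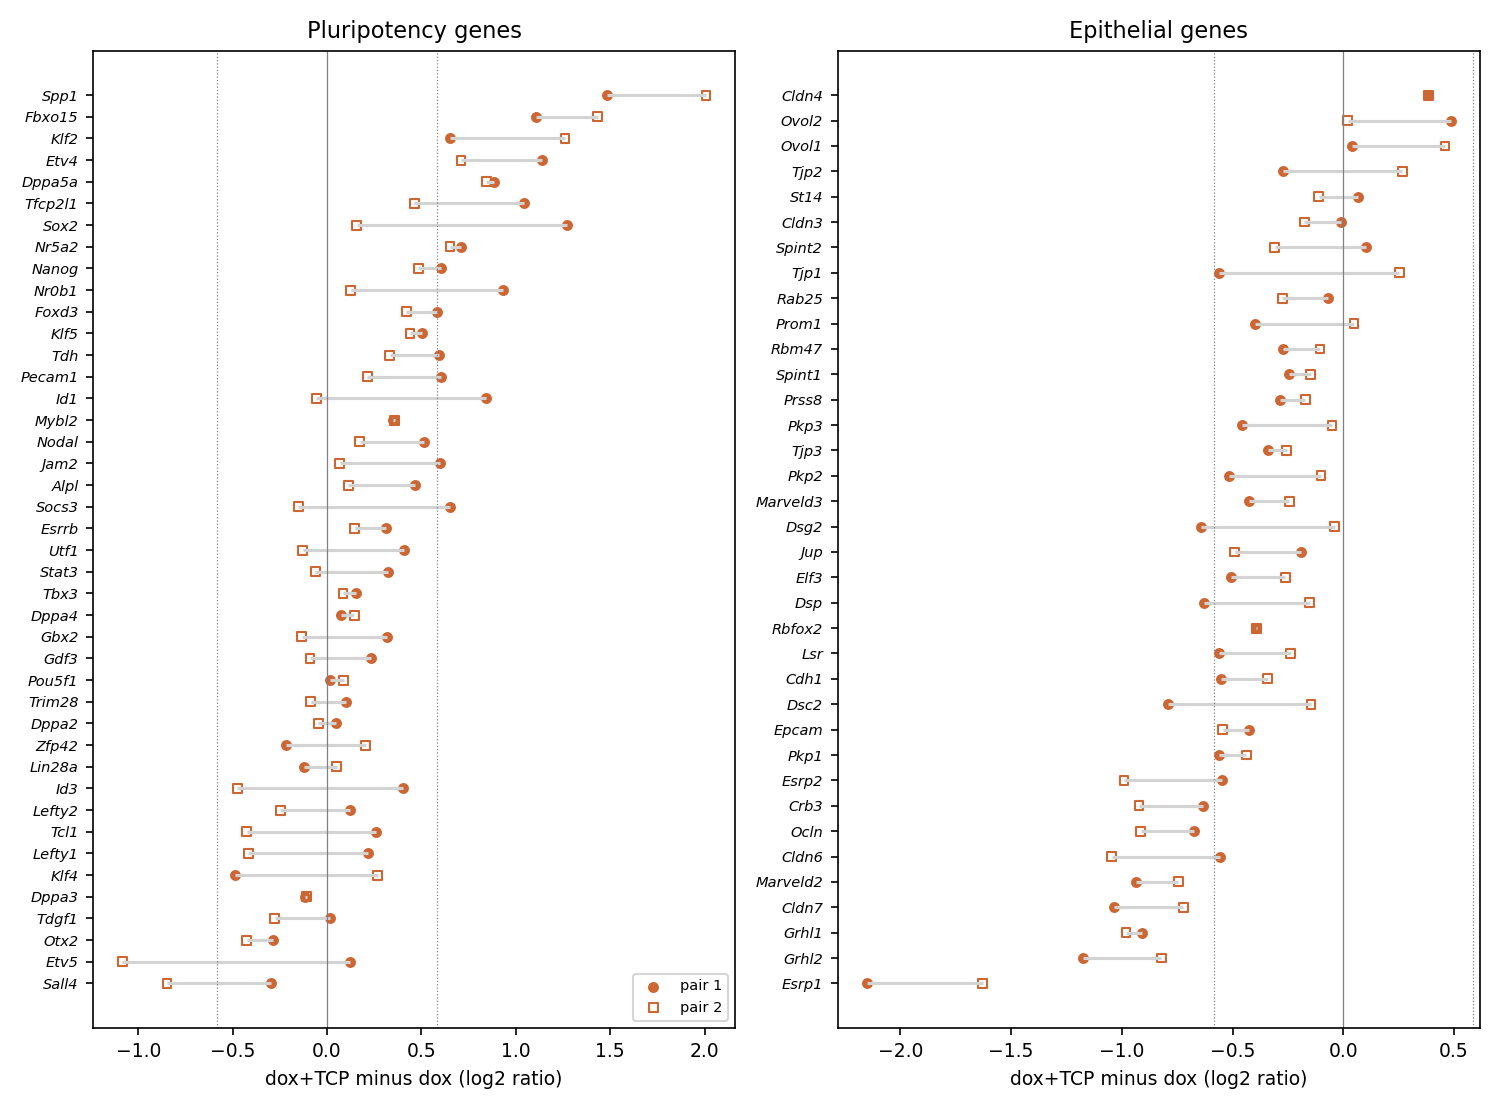
The log2 ratio difference of dox+TCP minus dox for members of the pluripotency (left) and epithelial (right) lists, with pair 1 as filled circles and pair 2 as open squares; dotted lines mark 1.5-fold. Spp1 and Fbxo15 stand at the top of the first panel and Esrp1 at the bottom of the second; over the whole lists 23 of 43 members were above 0 in both pairs in the first and 29 of 37 below 0 in the second.

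Of 22 measured genes of the mesenchymal transition, 3 were at least 1.5-fold higher in both pairs and 0 lower: Zeb1, Snai2 and Tgfbi. Over all genes tested 1.55% were higher and 1.40% lower in this way. Snai2, a SNAG-domain repressor of epithelial genes, was at -1.53 and -1.85 with doxycycline and at -0.44 and -0.63 with TCP (1.15 ± 0.23). Its groups did not overlap, as for 14.7% of all genes tested (higher). Zeb2 was at -0.75, -0.48, -0.48 and -0.04 (0.36 ± 0.26) and Snai1 at -0.81, -0.28, 0.01 and -0.12 (0.49 ± 0.27, with Cy5 differences of 0.80 and -0.37). The median of the whole list was 0.61 in pair 1 and 0.01 in pair 2 (0.33 by group means, and -0.08 without dox 1). Vim, the intermediate filament gene, differed by 1.24 in pair 1 and 0.27 in pair 2, and the fibronectin gene Fn1 by 0.15 and -0.90 (0.19 and 0.28 in Cy5). Tgfbi spread more within groups than between them (-0.97, 1.35, 0.38 and 2.06) and its difference was -0.14 without dox 1.

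The cells had been grown on fibroblast feeders, and the summed signal of fibroblast markers was highest on dox+TCP 1. The summed Cy5 signal of 8 fibroblast markers, well above background on all arrays, was 1.47 on dox 1, 1.48 on dox 2, 2.52 on dox+TCP 1 and 1.68 on dox+TCP 2 (log2). Of 19 measured fibroblast genes, 2 (S100a4 and Thy1) were at least 1.5-fold higher in both pairs and 0 lower (all genes tested 1.55% and 1.40%). Their list median was 0.47 in pair 1 and -0.16 in pair 2, but 0.40 and 0.35 in Cy5 alone. The sum adds linear signals, so the bright markers weigh most. In Cy5 the markers Col1a1, Col1a2 and Thy1 were highest on dox+TCP 1. Col3a1, Dcn, Lum, Postn and Pdgfrb were highest on dox+TCP 2. Col1a1 differed by 1.18 in pair 1 and -0.29 in pair 2. Zeb1 and Snai2 were higher in pair 2 as well (1.38 and 1.22). The part of fibroblasts in the mesenchymal values was not tested. In bulk RNA, more cells of a type and more RNA per cell cannot be told apart.

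Of 43 pluripotency genes measured, 7 were at least 1.5-fold higher in both pairs and 0 lower (all genes tested 1.55% and 1.40%). Above 0 in both pairs were 23, against 3 below (all genes tested 27% and 24.2%). The median difference was 0.23 (0.40 in pair 1, 0.11 in pair 2, 0.29 in Cy5), while the median log2 ratio of the list overlapped between the groups and was below the reference throughout, at -2.19 on dox 1, -1.64 on dox 2, -1.78 on dox+TCP 1 and -1.59 on dox+TCP 2. Among the 7 were Spp1, Fbxo15, Klf2, Etv4, Dppa5a and Nr5a2. Fbxo15, an F-box gene used as a reporter of the pluripotent state, was at -1.75, -2.18, -0.64 and -0.75 (1.27 ± 0.25). Klf2, a factor of naive pluripotency, was at 0.14 and -0.12 with doxycycline and at 0.79 and 1.14 with TCP (0.96 ± 0.25). Nr5a2, an orphan receptor that can act on the Pou5f1 gene, was at -2.49, -2.38, -1.78 and -1.73 (0.68 ± 0.21). In these 3 the groups did not overlap, as in 14.7% of all genes tested (higher).

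The core factors differed less evenly. Nanog was at -0.87, -1.22, -0.27 and -0.74, a difference of 0.54 ± 0.28. Sox2, the partner of Oct4, was at -3.33 on dox 1 and -2.38 on dox 2, and at -2.06 and -2.22 with TCP, so its difference was 1.27 in pair 1 and 0.16 in pair 2. Esrrb had a difference of 0.31 in pair 1 and 0.15 in pair 2, but 0.37 and -0.80 in Cy5. Zfp42, Klf4 and Lin28a differed in opposite directions in the pairs. Sall4 was lower in both, by -0.30 and -0.85. The summed Cy5 signal of 6 stem cell markers was 4.77 and 4.90 with doxycycline and 5.46 and 5.48 with TCP (log2). The sum adds linear signals, so its brightest markers, Fbxo15 and Zfp42, weigh most. Fbxo15 was at 3.42, 3.45, 4.62 and 4.54 and Zfp42 at 3.42, 3.25, 3.29 and 3.64 (log2 Cy5). The rise of the sum thus lay mostly in Fbxo15.

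Trophoblast genes leaned lower with TCP, but the lean depended on the arrays. Of 44 measured, 4 were at least 1.5-fold lower in both pairs (Gata2, Fgfr2, Gcm1 and Dlx3) and 2 were higher (Ddah1 and Fabp3). Over all genes tested 1.40% were lower and 1.55% higher in this way. Below 0 in both pairs were 21 of the 44, against 7 above (all genes tested 24.2% and 27%). For Fgfr2, 2 further probes gave -0.06 and -0.67, and -0.53 and 0.07, in the pairs. The median was -0.19 (-0.21 and -0.16 in the pairs, -0.33 in Cy5). It was -0.79 without dox 2 and -0.67 without dox+TCP 1, yet 0.28 without dox 1, 0.23 without dox+TCP 2 and 0.06 with normexp on backgrounds as read. The median log2 ratio of the list was 2.09 on dox 1, 0.57 on dox 2, 1.76 on dox+TCP 1 and 0.39 on dox+TCP 2, so it differed more between replicate numbers than between groups. Gcm1, the factor of syncytiotrophoblast formation, was the clearest member, at 2.05, 1.29, 0.84 and 0.66 (-0.92 ± 0.32). Its groups did not overlap, as for 14.9% of all genes tested (lower). Its Cy5 differences were -1.16 and -1.20, though it was well above background on only 1 of the 2 dox+TCP arrays. Cdx2, which opposes Oct4 in the early embryo, was at 3.55 and 0.90 with doxycycline and at 3.07 and 0.20 with TCP (-0.58 ± 1.26). Tfap2c was at 3.22, 0.77, 1.78 and 0.20, lower in both pairs by -1.44 and -0.57. Eomes was higher in pair 1 (1.31) and lower in pair 2 (-0.55). The summed Cy5 signal of 8 trophoblast markers was 8.89 and 8.86 with doxycycline and 8.36 and 8.67 with TCP.

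Ddah1 was the highest trophoblast-list gene with TCP, at -1.56, -0.68, 0.38 and 0.27 (1.45 ± 0.35), and a further probe gave 1.49 and 0.25 in the pairs. Fabp3, a fatty acid carrier gene, was at 4.85, 3.23, 5.60 and 4.18 (0.85 ± 0.72), so its groups overlapped. Primitive endoderm genes, the other early lineage, had 2 of 22 higher and 0 lower (Apoe and Amn) and a median of 0.09. Over all genes tested 1.55% were higher and 1.40% lower by this measure. Above 0 in both pairs were 9 of the 22, against 4 below (all genes tested 27% and 24.2%). Amn, a receptor gene of visceral endoderm, was at -2.13, -0.77, 0.13 and 0.00 (1.52 ± 0.48). The lineage factor genes did not move alike. Sox17 was at 0.78, 0.70, 0.30 and 0.01 and Foxa2 at 0.57, 0.52, 0.16 and 0.06, lower with TCP without overlap (14.9% of all genes tested). Gata6 was at 0.49, 0.09, 0.80 and 0.25, higher in both pairs. The summed Cy5 signal of 5 primitive endoderm markers was -0.14, 0.65, -0.11 and 1.08 on the 4 arrays, and Sox7 was not well above background in Cy5 on any.

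**Figure D5:**
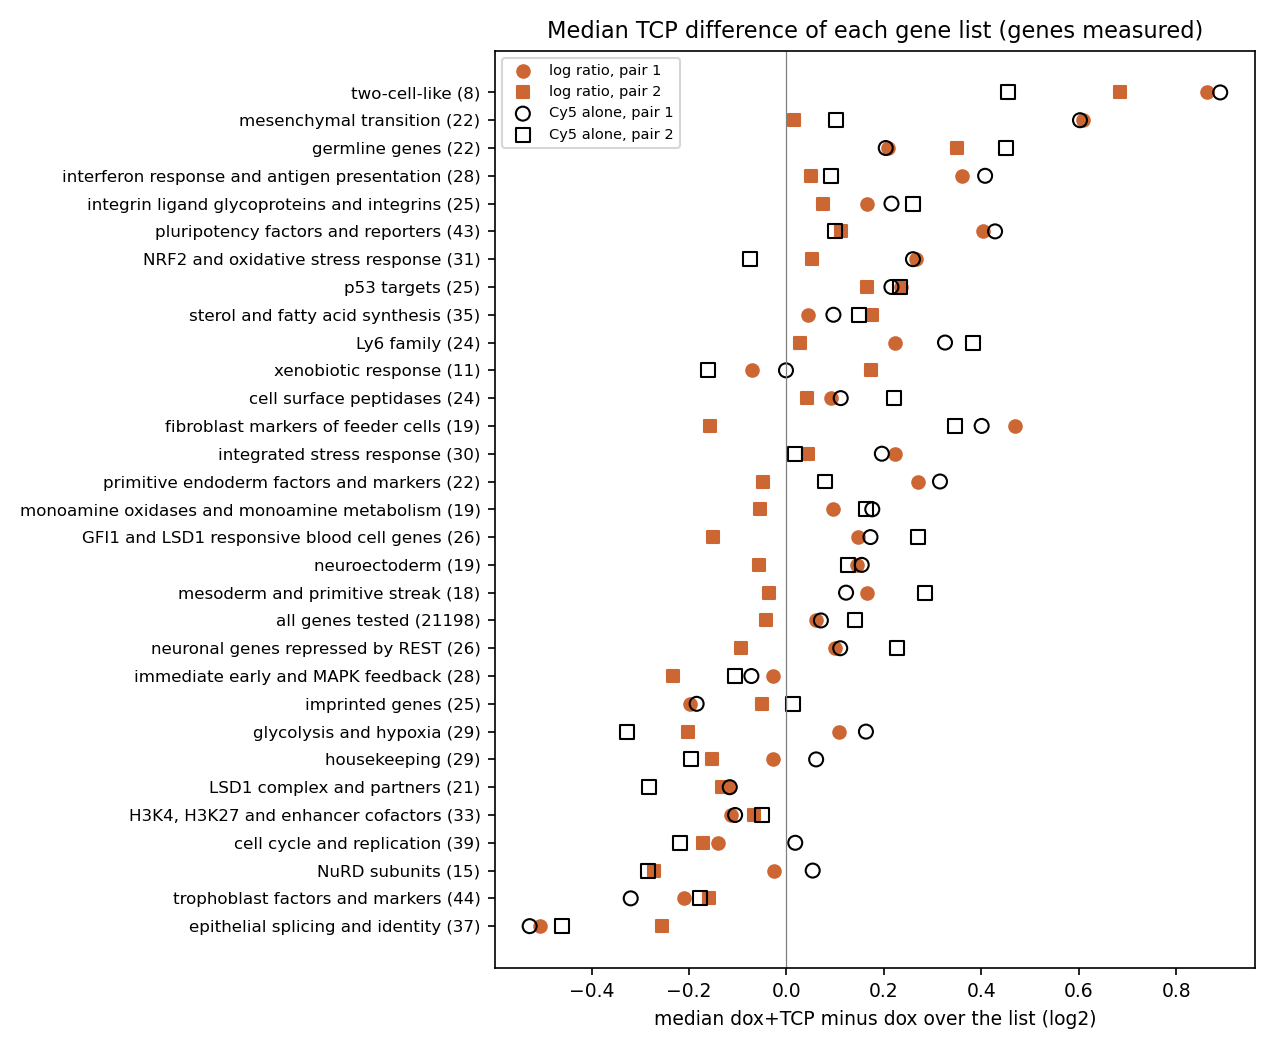
Median log2 difference of dox+TCP minus dox over each gene list and over all genes tested, by the log ratio (orange) and by Cy5 alone (black, open), in pair 1 (circles) and pair 2 (squares), with the number of genes measured in brackets. By the ratio the epithelial list lies at -0.51 and -0.25, lowest in pair 1 but not in pair 2, where the NuRD subunits are at -0.27, and the two-cell-like list lies highest (0.86 and 0.69), while several lists, such as the fibroblast markers (0.47 and -0.16), differ between the pairs.

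Genes of the two-cell-like state, which is marked by bursts of Zscan4 transcription in a few stem cells and which LSD1 is known to limit, had the highest median of the lists. Of 8 measured, 4 were at least 1.5-fold higher in both pairs and 0 lower (all genes tested 1.55% and 1.40%): Zscan4c, Tcstv1, Tcstv3 and Usp17la. Zscan4c was at -3.19 on both dox arrays, -2.06 on dox+TCP 1 and -1.84 on dox+TCP 2 (1.24 ± 0.21). Tcstv1 was at -2.36, -1.91, -1.26 and -1.03 (0.99 ± 0.26), and Tcstv3 at -2.55, -1.96, -1.42 and -1.19 (0.95 ± 0.29). All 3 stayed below the reference with TCP, and their groups did not overlap, as for 14.7% of all genes tested (higher). These genes belong to families of near-identical copies, so a probe may report several members and the 4 are not independent. The median of the list was 0.68 (0.86 and 0.69 in the pairs), against 0.02 for all genes. In Cy5 alone the list median was 0.63 (0.89 and 0.46 in the pairs). By Cy5 only 1 of the 8, Zscan4c, was past 1.5-fold higher in both pairs (all genes tested 2.01%), and its Cy5 signals overlapped between the groups. Cy5 differences were 1.05 and 0.55 for Tcstv1 and 1.14 and 0.40 for Tcstv3. Of 22 germline genes, 3 were higher and 0 lower: the meiotic gene Hormad1 (1.34 ± 0.29), the oocyte factor gene Figla (1.06 ± 0.43) and Taf7l (0.88 ± 0.21), with a list median of 0.26.

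Of 24 genes of the Ly6 family, small surface proteins held by a lipid anchor, 3 were higher in both pairs and 0 lower. Over all genes tested 1.55% were higher and 1.40% lower in this way. Ly6c1 was at -1.63 on dox 1, -0.997 on dox 2, 0.64 on dox+TCP 1 and 0.20 on dox+TCP 2 (1.73 ± 0.32). Ly6a, the stem cell antigen Sca-1, was at -1.13, -0.75, 1.07 and 0.40 (1.67 ± 0.32), and Ly6g6e at -1.05, -0.68, 0.62 and 0.18 (1.27 ± 0.27). In all 3 both dox arrays were below the reference and both dox+TCP arrays above it. The size rests more on pair 1: Cy5 alone gave 2.43 and 0.62 for Ly6c1, 2.41 and 0.38 for Ly6a, and 1.66 and 0.35 for Ly6g6e in pairs 1 and 2, and the Cy5 signals of Ly6c1 and Ly6a overlapped between the groups. A further Ly6c1 probe differed by 0.70 and 0.86, and one for Ly6g6e by 1.16 and 0.19. Ly6c1 and Ly6a are close relatives on chromosome 15, where probes can share transcripts. Their probes lie there from 75125619 to 75125674 and from 75075673 to 75075732 (mm7). The median of the family was 0.14. Ly6 antigens also mark blood cells, whose summed Cy5 signal over 5 markers was -0.04, 0.48, 0.43 and 1.098 (log2) on the 4 arrays; 3 of the 5 were well above background in both groups, while Tyrobp was on no array and Ptprc on 1 dox+TCP array. Their part in these values was not tested.

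Among 25 integrins and their ligand glycoproteins, 2 were higher in both pairs and 0 lower (all genes tested 1.55% and 1.40%), Spp1 and Itgb7. Itgb7, an integrin chain of lymphocytes, was at -3.19, -2.54, -1.97 and -1.86 (0.95 ± 0.29). The bone glycoproteins Dmp1 and Mepe, relatives of Spp1, differed by -0.14 ± 0.25 and -0.16 ± 0.22. Of 24 surface peptidase genes, Mme was the 1 past 1.5-fold in both pairs. Its closest relative in name, Mmel1, was at 0.35, 0.83, 1.01 and 1.34 (0.59 ± 0.28), and Ggt1 differed by 0.66 ± 0.33.

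LSD1's own partners differed little. Of 21 genes of LSD1 complexes and the factors that recruit them, 1 was higher in both pairs (Zeb1) and 1 lower. The list median was -0.07, and over all genes tested 1.55% were higher and 1.40% lower in this way. The lower one was the corepressor gene Ctbp1, at 0.11 and 0.16 with doxycycline and at -0.51 and -0.79 with TCP (-0.79 ± 0.22). The CoREST gene Rcor1 differed by 0.04 ± 0.25, Rcor2 by -0.22 ± 0.28, and the histone deacetylase genes Hdac1 and Hdac2 by -0.50 ± 0.22 and -0.39 ± 0.27 (0.22 for Hdac2 in Cy5 alone). Of 15 NuRD subunits 0 were higher and 1 was lower, the methyl-DNA binding gene Mbd2, at 1.02, 1.20, 0.22 and 0.15 (-0.93 ± 0.21), with Cy5 differences of -0.85 and 0.17. Of 33 histone methylation and enhancer cofactor genes 1 was lower, Kmt2d, an H3K4 methyltransferase gene (-0.89 ± 0.28, with Cy5 differences of -0.74 and -0.22), and 0 were higher. Of 26 genes known to respond to GFI1 and LSD1 in blood cells, 2 were higher (Ly6a and Ly6c1) and 1 lower, Cebpa (-0.88 ± 0.55). Of 26 neuronal genes under REST, which acts through LSD1 and CoREST, 0 were past 1.5-fold in both pairs in either direction.

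Stress and growth programmes gave single genes. Over all genes tested 1.55% were at least 1.5-fold higher in both pairs and 1.40% lower, the measure used for these lists. Of 25 p53 targets, 1 (Ccng1) was past 1.5-fold in both pairs, with a list median of 0.18 and 13 members above 0 in both pairs against 2 below (all genes tested 27% and 24.2%). Ccng1, a cyclin gene, was at 0.32, 0.67, 1.28 and 1.41 (0.85 ± 0.24). Cdkn1a, the cell cycle inhibitor p21, was at 1.07, 1.23, 2.00 and 1.81 (0.76 ± 0.22). In Cy5 alone Cdkn1a differed by 1.03 in pair 1 and -0.17 in pair 2, and its groups overlapped. Mdm2, the p53 ligase, differed by 0.75 ± 0.27, and a further probe by 0.17 and 0.26 in the pairs. Of 30 integrated stress response genes 3 were higher and 0 lower: Ddit3, the factor CHOP, at 2.12, 2.91, 3.15 and 3.65 (0.89 ± 0.36), Nupr1 (0.79 ± 0.33) and Cth, of cysteine synthesis (0.77 ± 0.31). Of 28 immediate early and MAPK feedback genes 3 were lower, with Myc and Jun (-0.81 ± 0.48) among them, and 2 higher. Of 39 cell cycle genes 1 was lower in both pairs, Ccne2, at 1.28 on dox 1 and between -1.65 and -0.99 on the other arrays, so dox 1 alone set it apart.

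Among metabolic and immune lists, 1 of 35 sterol and fatty acid genes was higher (Tm7sf2, 0.97 ± 0.32) and 1 lower. By the same measure 1.55% of all genes tested were higher and 1.40% lower. Of 28 interferon and antigen presentation genes 1 was higher, the antiviral gene Oasl2, at 1.37, 1.22, 2.11 and 2.04 (0.78 ± 0.21). B2m, the light chain of class I molecules, was at 1.27, 0.56, 1.78 and 2.09 (1.02 ± 0.32). Its groups did not overlap, as for 14.7% of all genes tested (higher), but a further probe differed by -0.095 and 0.39 in the pairs. Of 29 glycolysis and hypoxia genes 1 was higher, the growth factor gene Vegfa (0.68 ± 0.22), and 1 lower, the glucose transporter gene Slc2a1 (-0.64 ± 0.46). For Vegfa, 2 further probes gave 0.38 and 0.36, and 0.22 and 0.17, in the pairs. In Cy5 alone Slc2a1 differed by -0.33 in pair 1 and 0.08 in pair 2, and its reference signal by 0.34 and 0.68. Of 31 oxidative stress genes 1 was higher (Gsta3, 0.90 ± 0.26) and 1 lower (Srxn1, -0.65 ± 0.27). Of 25 imprinted genes 2 were higher and 0 lower, the neighbouring noncoding genes Meg3 (0.83 ± 0.35) and Rian (1.20 ± 0.49). In Cy5 alone Meg3 differed by 0.97 in pair 1 and -0.076 in pair 2, and 2 further probes gave 0.33 and -0.17, and -0.087 and -0.021, for the ratio. In Cy5 alone Rian was at -2.42 in pair 2, where its reference signal was also low on dox+TCP 2. Of 29 housekeeping genes 0 were past 1.5-fold in both pairs, with a median of -0.07. Of 19 genes of monoamine metabolism, which the monoamine oxidases serve, 1 was higher (Sat1, of polyamine breakdown, 0.67 ± 0.33) and 0 lower. A further Sat1 probe differed by 0.53 and 0.03 in the pairs. Of 11 genes of the response to foreign compounds 1 was lower (Ahrr, -0.94 ± 0.46) and 0 higher. Mesoderm and neuroectoderm genes, 18 and 19 measured, had 0 past 1.5-fold in both pairs.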

How the data were processed

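RNA of treated (Cy5) and reference (Cy3) ZHBTc4 cells was measured on 4 Agilent two-colour arrays, 1 µg total RNA each, without a dye swap, per the labels' protocols. Spot intensities on a linear scale and log10 ratios, after spatial detrending and dye normalization within the array (linear and lowess, as the header's method code is read here), came out of Agilent's Feature Extraction software (10.1.1.1) with an mm7 annotation, per the file headers. In the series matrix the authors deposited log10 values, equal to these ratios within 0.005 (column medians 0, 0.0111, 0 and 0), which settles scale and direction.

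Here the 1639 control spots were left out, outlier-marked spots (119 to 176 per array) set to missing, and ratios turned to log2. Cy5 alone is the log2 processed signal minus the array's 75th percentile. Only probes well above background in Cy5 on both arrays of a group entered the fit, and a gene was read from its brightest probe (30734 probes, 21198 genes). limma 3.58.1 in R 4.3.3 gave group differences (2 residual and 2.90 prior degrees of freedom; median SE 0.26) with Benjamini-Hochberg adjustment at 0.05, and was checked on simulated data. Normalization, filters, probe choice, blocks and left-out arrays were varied. Symbols came from a RefSeq table of GRCm38.p6, which matched 22951 probes by accession, 6659 by symbol and 3109 by synonym; 8455 kept the name in the files. The number of arrays limits the precision.

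The genes Mme, Spp1, Esrp1, Ly6c1, Rgma, Chst5, Adnp, Pou5f1, Kdm1a, Maoa and Maob, the 30 gene lists and the tests were chosen with earlier results of these data known. The other named genes are the 12 each way with the largest smaller-of-both pair difference and groups apart in ratio and Cy5, and at most 3 from each list, ranked by that size; further list members named in the text were chosen after their values were seen. Promoter windows are RefSeq's (GRCm38.p6). Results for a few genes are not reported here.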

Additional observations from a re-analysis of the deposited data

How the results depend on the processing

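limma's adjusted p was under 0.05 for 0 genes in every alternative run, while the count at an unadjusted p under 0.05 ran from 135 to 2608 (main 366 higher and 325 lower). It was 175 in Cy5 alone, 474 and 937 with normexp (backgrounds as read, and bright ones replaced), 810 with median centring, 1430 without the filter on dim probes, 615 with a filter in Cy3 too, 684 with probes averaged and 697 with a variance trend. Counts past 1.5-fold in both pairs, 329 and 296, were 39 and 38 at 2-fold, 169 and 18 with normexp as read, 102 lower genes with bright backgrounds replaced, and 503 higher genes without the filter, where 27596 genes were tested; other counts stayed within 1.5 times. Leaving out dox 1, dox 2, dox+TCP 1 or dox+TCP 2 gave 2608, 2076, 506 and 135 genes at an unadjusted p under 0.05; the lone array is assumed to vary like the other group, and 0 were called each time. The count in both pairs has no value with an array left out. Scan day as a block leaves the same estimates as the comparison without dox+TCP 2. Slide as a block leaves pair 1 alone with no residual degrees of freedom and was not run. The replicate numbers share only a number under the labels; deviations of same-numbered arrays from their group means correlated at 0.44, and the replicate block gave 1422 genes at an unadjusted p under 0.05 and called 0.

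Of 105 named genes, 90 kept their sign in all alternatives, among them 23 of the 24 leading genes (not Zfp324). The leading genes were picked with groups apart in the ratio and in Cy5. Their sign thus could not turn in Cy5 alone, with a block or with an array left out. Among all named genes, the signs that turned were, in Cy5 alone, Pou5f1 (-0.53), Hdac2 (0.22), Rian (-0.73) and Zic2 (-0.017). With normexp on backgrounds as read they were Maoa (0.091), Zfp324 (0.14), Hdac2 (0.14), Ccne2 (0.19), Figla (-0.081), Ankrd37 (0.060), Oasl2 (-0.13), Foxc1 (0.081) and Cyp2s1 (-0.18). With median centring it was Pou5f1 (-0.053). With scan day as a block, and likewise without dox+TCP 2, they were Pou3f1 (-0.053), Dlx3 (0.22) and Cyp2s1 (-0.045). Without dox 1 they were Tgfbi (-0.14), Pou3f1 (-0.086), Dlx3 (0.0024) and Cyp2s1 (-0.51). Over the left-out arrays these ran up to 2.19 for Tgfbi, 0.49 for Pou3f1 and 1.79 for Cyp2s1, and down to -2.37 for Dlx3. Normexp as read shrinks most sizes, with Mme at 0.94, Esrp1 at -0.68 and Mfsd6l at -0.24; the cause was not tested. List medians kept their sign in all alternatives for the epithelial (-0.56 to -0.086), pluripotency (0.089 to 0.51), two-cell-like (0.44 to 1.21), germline (0.21 to 0.36) and p53 (0.060 to 0.31) lists. So did those of the Ly6, surface peptidase, oxidative stress, integrated stress, sterol, cell cycle and housekeeping (-0.24 to -0.015) lists. A kept sign was thus not particular to the lists with large medians.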

Other observations

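By the log2 ratio, which carries the unlike reference, the dox arrays differed more from each other than from the dox+TCP arrays. Log2 ratios correlated across genes at 0.639 between dox 1 and dox 2 and at 0.839 between the dox+TCP arrays (genes are not independent replicates). For dox 1 the value was 0.869 with dox+TCP 1 and 0.674 with dox+TCP 2. For dox 2 it was 0.764 with dox+TCP 1 and 0.790 with dox+TCP 2. In Cy5 alone this order did not hold: dox 1 correlated at 0.961 with dox 2 and at 0.958 with dox+TCP 2. Genes that went opposite ways in the pairs, the largest of which were picked after their values were seen, show where the ratios differed. Nrk, a kinase gene of the placenta, had ratios of 6.399 on dox 1, 1.41 on dox 2, 5.24 on dox+TCP 1 and 2.72 on dox+TCP 2. Olr1, a scavenger receptor gene, was at 6.31, -0.57, 3.52 and 0.84, and its Cy5 difference was -3.13 in pair 1 and 1.72 in pair 2. Rlim, a ubiquitin ligase gene, was at 1.58, -1.75, 0.41 and -0.17, and Lcor, a corepressor gene, at 2.05, -1.55, 0.80 and -0.30. For Chml, Tmed5 and Zfp160 the same held, with the dox+TCP arrays lying between the dox arrays. In the other direction, Thbd, the thrombomodulin gene, was at -2.30, -0.72, -1.09 and -1.76, and Jakmip2 at -2.32, -0.59, -1.14 and -2.42.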
